A study of Rattus norvegicus with 10 samples.

Results

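The genes described here carry the signal of insulin and insulin-like growth factors from the cell surface to the kinase Akt and on to a transcription factor that Akt controls. They are the receptors Insr and Igf1r, the receptor substrates Irs1 and Irs2, the PI3-kinase subunit Pik3r1, the kinases Akt1 and Akt2, and the transcription factor Foxo1. These 8 genes were selected by symbol out of 23918 genes in the deposited table, all 8 were found, and all 8 passed the filter on low values that left 12941 genes for testing. The RNA came from pancreatic β-cells of adult Sprague-Dawley rats, which had been isolated by fluorescence-activated cell sorting (FACS) on their autofluorescence. Sorted cells received a pool of 4 siRNAs directed against Scrt1, a zinc-finger transcriptional repressor of the Snail superfamily (siScrt1), or a negative control siRNA (siCtrl), and RNA was collected 48 h later. Both groups were cultured on extracellular matrix and exposed to the lipid transfection reagent, and each comprised 5 libraries, called siCtrl replicates 1 to 5 and siScrt1 replicates A to E. No source used here says how many animals contributed to a library, so the p-values below measure the spread between these libraries, which may be partly technical.

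In this pathway, a ligand activates the receptor tyrosine kinases Insr or Igf1r, which phosphorylate the docking proteins Irs1 and Irs2. The docked PI3-kinase produces the membrane lipid PIP3, which brings Akt to the membrane where it is phosphorylated and activated. Akt in turn phosphorylates many proteins, among them FoxO1, which leaves the nucleus when phosphorylated. In β-cells, which are both the source and a target of insulin, the pathway is known for its part in growth, survival and the maintenance of β-cell mass. Only RNA was measured here, and neither phosphorylation nor protein was assayed.

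Reads assigned to transcripts ran from 11901342 to 17444034 per library, as recovered from the scaled values in the table. Reads that were not assigned are not included. Scrt1 itself, the targeted gene, had normalised counts (estimated counts scaled between libraries by the authors) of 215, 156, 213, 250.4 and 166 in siCtrl replicates 1 to 5, and of 83.3, 62.3, 63.1, 30.5 and 22.8 in siScrt1 replicates A to E. The groups did not overlap, and siScrt1 replicates D and E had the lowest values. Scrt1 fell by 2.06 on the log2 scale (SE 0.308, limma adjusted p = 0.00618). The β-cell identity of the libraries was checked with 10 marker genes, 9 of which were in the table and all 9 above 0, and their summed level was 103162 to 166341 CPM in siCtrl and 105061 to 151310 CPM in siScrt1. Most of this sum came from the insulin genes Ins1 and Ins2, with mean normalised counts of 904675 and 705619 in siCtrl, so it mainly reflects insulin RNA. The summed markers of other cells were below this sum in every library. They reached at most 582 CPM for α-cells, 84.6 CPM for δ- and PP-cells, 0.617 CPM for acinar cells and 266 CPM for duct cells. For endothelial, mesenchymal and immune cells the highest sums were 2.33, 30.6 and 2.52 CPM. As the β-cell sum is mainly insulin RNA, this comparison does not measure the share of other cells.

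In control β-cells, the transcript level per length differed widely among the 8 genes, and the kinase gene Akt1 was the most abundant. Levels are compared between genes in TPM, which accounts for transcript length. In siCtrl, Akt1 had a mean of 60.1 ± 8.93 TPM, followed by Irs2 with 34.5 ± 3.82, Akt2 with 31.9 ± 3.58 and Igf1r with 28.4 ± 3.96 TPM (SD over 5 libraries). Foxo1 came next with 18.8 ± 1.43 TPM, then Pik3r1 with 10.2 ± 1.88, Insr with 3.99 ± 0.507 and Irs1 with 2.55 ± 0.179 TPM (SD over 5 libraries). In this order, the ranges of neighbours did not overlap except for Irs2 against Akt2, where Irs2 was higher in 4 of 5 libraries, and Akt2 against Igf1r, where Akt2 was higher in 5 of 5. The levels of these 3 genes thus lay within the range of their neighbours.

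Among the receptors and their substrates, the more abundant member of each pair was Igf1r and Irs2. The TPM of Igf1r was 7.11 ± 0.279 times that of Insr in siCtrl, with 6.69, 6.98, 7.34, 7.29 and 7.27 in replicates 1 to 5. The ratio was 5.93 ± 0.838 in siScrt1, with 6.06, 5.81, 7.07, 6.02 and 4.71 in replicates A to E (SD over 5 libraries each). Only siScrt1 replicate C reached the range of siCtrl, and replicate E was the lowest. The TPM of Irs2 was 13.6 ± 2.42 times that of Irs1 in siCtrl and 12.8 ± 1.39 times in siScrt1 (SD over 5 libraries each), and these ranges overlapped.

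**Figure D1:**
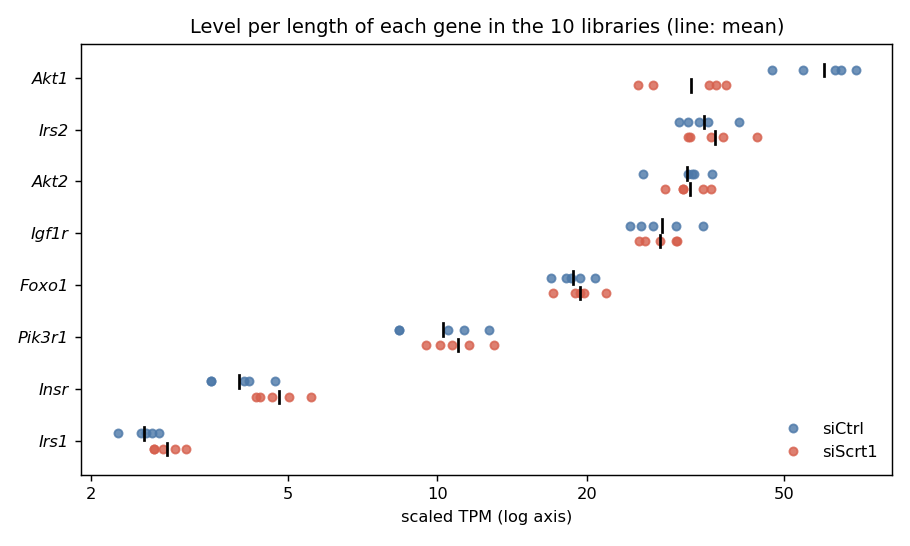
Scaled TPM of each of the 8 genes on a logarithmic axis, in the 5 siCtrl libraries (blue points) and the 5 siScrt1 libraries (red points), with a black line at each group mean. Genes are ordered by their siCtrl mean, from Akt1 at 60.1 TPM to Irs1 at 2.55 TPM, and only for Akt1 do the groups separate, with a siScrt1 mean of 32.5 TPM.

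The main comparison asked whether these genes changed when Scrt1 was lowered. Akt1 fell to 0.538 times its control level, and the test called none of the other 7 genes. The differences of these 7 genes lay between -0.01 and 0.26 on the log2 scale, and their 95% intervals together ran from -0.21 to 0.47. Among all genes tested, limma called 1.05% at an adjusted p under 0.05 (0.68% lowered and 0.371% raised), and 1 of the 8 genes was called. With the replicate number as a block, 2% of all genes were called and Akt1 was again the gene called among the 8. That Akt1 was lower in siScrt1 was known when the genes were chosen, so the count of 1 in 8 is a description. In bulk RNA of this kind, less RNA of a gene per cell and fewer cells that express it cannot be told apart.

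**Figure D2:**
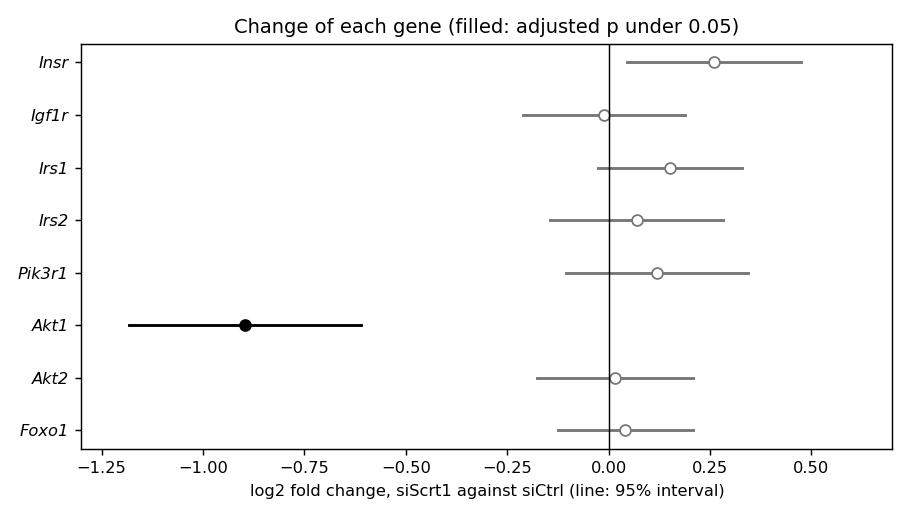
Log2 fold change of each of the 8 genes in siScrt1 against siCtrl, from limma on log2(normalised count + 0.5), with its 95% interval as a horizontal line. The filled point marks Akt1, the gene with an adjusted p under 0.05, at -0.90 with an interval from -1.18 to -0.61, and the intervals of the other 7 genes lie to its right without touching it.

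Insr (ENSRNOG00000029986) encodes the insulin receptor. Its normalised counts were 443, 383, 384, 513 and 454 in siCtrl replicates 1 to 5 and 502, 479, 468, 548 and 604 in siScrt1 replicates A to E. Every siScrt1 library lay above the siCtrl median and 2 lay above the highest siCtrl library, but the groups overlapped. The log2 fold change was 0.26 (SE 0.0988, 95% interval 0.046 to 0.47), with an unadjusted p of 0.0209 and a limma adjusted p of 0.321. An unadjusted p under 0.05 was reached by 11.1% of all genes tested. Between libraries of the same number, Insr was higher in siScrt1 in 5 of 5, by 0.094 to 0.41 on the log2 scale. No source used here says that such libraries are pairs. The share of all genes that went 5 of 5 was not computed, so this count is a description. An exact two-sided permutation test of Insr gave p = 0.0476 on the normalised counts and p = 0.119 on CPM, neither adjusted over genes. All reads of Insr were assigned to its transcript of 6969 bases, and the other annotated transcript, of 5396 bases, was at 0 in every library. The estimated reads of Insr were not whole numbers, which is how kallisto records reads that fit several transcripts. The other Insr transcript took none of these reads, and which transcript took the rest was not examined. The uncertainty this puts on the level of Insr was not modelled.

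Igf1r (ENSRNOG00000014187) encodes the receptor for insulin-like growth factors. It had normalised counts of 1705, 1539, 1623, 2157 and 1904 in siCtrl replicates 1 to 5 and 1756, 1605, 1908, 1899.7 and 1642 in siScrt1 replicates A to E. All siScrt1 libraries fell inside the range of siCtrl. The difference on the log2 scale was -0.01 (SE 0.0922, 95% interval -0.21 to 0.19, limma adjusted p = 0.976), and its sign turned when replicate 4 or 5 of siCtrl, or B or E of siScrt1, was left out.

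Irs1 (ENSRNOG00000014597) and Irs2 (ENSRNOG00000023509) encode the docking proteins that link the receptors to PI3-kinase. The normalised counts of Irs1 were 227, 209.5, 189.7, 215 and 220.3 in siCtrl replicates 1 to 5 and 231, 223, 258, 223 and 245 in siScrt1 replicates A to E. In siScrt1, replicates A, C and E lay above the highest siCtrl library, and replicates B and D did not. Irs1 differed by 0.15 on the log2 scale (SE 0.0820, 95% interval -0.026 to 0.33, limma adjusted p = 0.535). Between libraries of the same number, Irs1 was higher in siScrt1 in 5 of 5, by 0.024 to 0.44 on the log2 scale. This count too is a description, given without the share over all genes. Exact two-sided permutation tests of Irs1 gave p = 0.0317 on the normalised counts and p = 0.127 on CPM, neither adjusted over genes. With 183 to 265 reads per library, Irs1 was the gene measured with the fewest reads among the 8.

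Irs2, which in β-cells is the better known of the pair, was measured with 2855 to 4536 reads per library. Its normalised counts were 3561, 3257, 4145, 3122 and 3431 in siCtrl replicates 1 to 5 and 3603, 3817, 4468, 3281 and 3246 in siScrt1 replicates A to E. Replicate 3 was the highest in siCtrl and replicate C in siScrt1, and the groups overlapped over most of their range. On the log2 scale the groups differed by 0.07 (SE 0.0985, 95% interval -0.14 to 0.28, limma adjusted p = 0.843).

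Pik3r1 (ENSRNOG00000018903) encodes the p85α regulatory subunit, which tethers the catalytic subunit of PI3-kinase to phosphorylated Irs proteins. Its normalised counts were 400.2, 503, 436, 551 and 539.6 in siCtrl replicates 1 to 5 and 477, 470.4, 522, 564 and 598 in siScrt1 replicates A to E. The groups overlapped, and the log2 fold change was 0.12 (SE 0.103, 95% interval -0.10 to 0.34, limma adjusted p = 0.711). Pik3r1 was the only gene of the 8 with reads on more than 1 transcript. The transcript of 4048 bases (ENSRNOT00000025687.7) differed by 0.13 on the log2 scale (limma adjusted p = 0.725 over 17580 transcripts) and that of 1365 bases (ENSRNOT00000075057.1) by 0.09 (SE 0.260, adjusted p = 0.937). The sharing of reads between these transcripts is an estimate, and its uncertainty was not modelled.

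Akt1 (ENSRNOG00000028629) encodes the Akt isoform with the broadest expression, known for its part in growth and survival. The normalised counts of Akt1 were 1948, 1697, 2506, 2329 and 2268 in siCtrl replicates 1 to 5. They were 1258, 1304, 1361, 970.1 and 905 in siScrt1 replicates A to E. The highest siScrt1 library thus lay below the lowest siCtrl library, and within siScrt1 replicates D and E were the lowest. Of all genes tested, 3.51% had groups that did not overlap in normalised counts.

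Akt1 fell by 0.90 on the log2 scale (SE 0.132, 95% interval of the log2 fold change -1.18 to -0.61), with a limma adjusted p of 0.00568 and rank 32 by p among 12941 genes. An exact two-sided permutation test on CPM gave p = 0.00794, the smallest that 5 against 5 libraries allow. Any gene whose groups do not overlap gets this value, so it only restates their separation. Between libraries of the same number, the log2 ratio of siScrt1 to siCtrl was -0.63, -0.38, -0.88, -1.26 and -1.32 for numbers 1 to 5, lower in 5 of 5. For Scrt1 the same ratios were -1.36, -1.32, -1.74, -3.02 and -2.84. Numbers 4 and 5 thus had the largest differences in both genes, and numbers 1 and 2 the smallest. The 2 series are set side by side over 5 pairs and were not tested against each other.

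The depth behind Akt1 was 1652 to 2722 reads per siCtrl library and 955 to 1550 reads per siScrt1 library. The call held when any of the 10 libraries was left out, with log2 fold changes from -0.98 to -0.81. The summed mesenchymal markers were highest in siScrt1 replicate D, at 30.6 CPM, and 8.68 CPM in replicate E, beside 4.72 to 6.13 CPM in replicates A to C. In siCtrl they were 16.8 CPM in replicate 4 and 3.71 to 6.86 CPM in the other replicates. Akt1 was lowest in siScrt1 replicates D and E, and in siCtrl replicate 4 its normalised count was 2329. This marker list was singled out among the marker lists after its values were seen. The siScrt1 replicate D and siCtrl replicate 4 carry the same library number. A link between these markers and Akt1 was not tested. Akt1 is represented by 1 transcript of 2418 bases (ENSRNOT00000031164.3), and in the fit of single transcripts, in which limma called 0.415% of 17580 transcripts, its adjusted p was 0.0215. With the replicate number as a block the adjusted p of this transcript was 0.0782 and the call was lost.

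**Figure D3:**
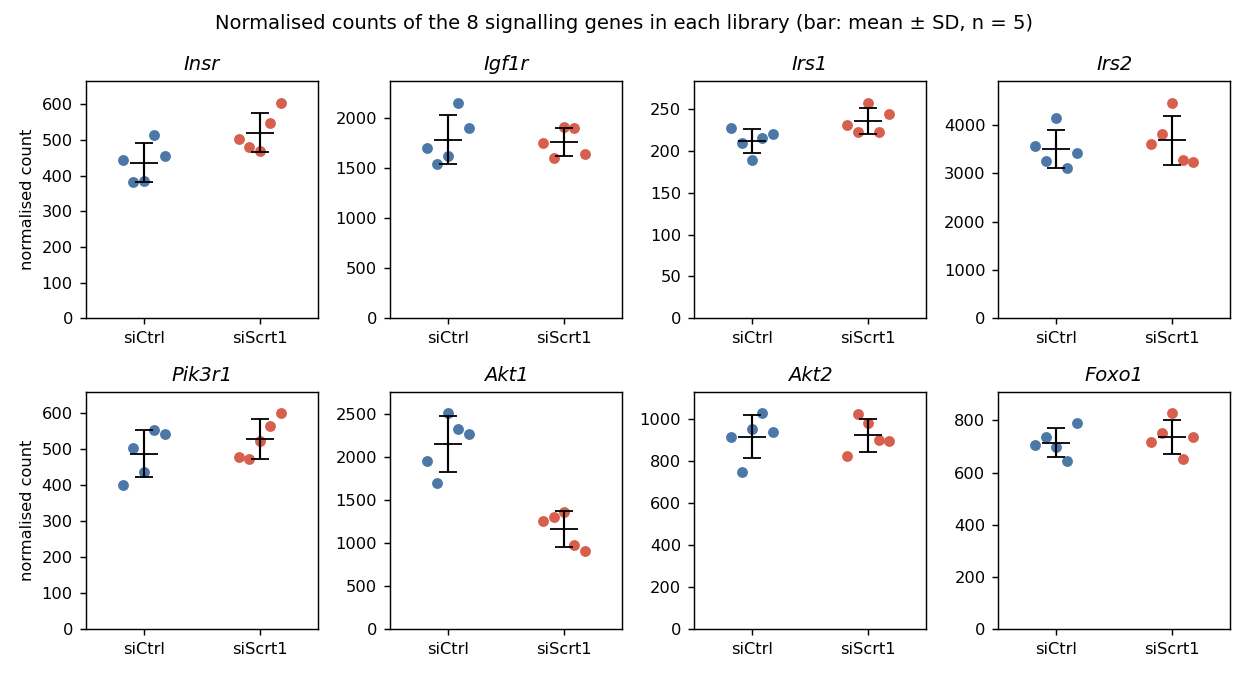
Normalised counts of the 8 genes in each library, with siCtrl replicates 1 to 5 in blue and siScrt1 replicates A to E in red, each from left to right, and bars for mean ± SD (n = 5). Each axis starts at 0. The siScrt1 libraries of Akt1, at 905 to 1361, all lie below its siCtrl libraries, at 1697 to 2506, while the groups of the other 7 genes overlap.

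Akt2 (ENSRNOG00000018677), the isoform best known for its role in glucose handling, had normalised counts of 915, 749.9, 954, 1029.6 and 939 in siCtrl replicates 1 to 5. They were 824, 1025, 982, 901 and 895 in siScrt1 replicates A to E, inside the range of siCtrl in every library. The log2 difference of Akt2 was 0.02 (SE 0.0885, 95% interval -0.18 to 0.21, limma adjusted p = 0.966). Its sign turned under scaling by total counts, and the interval excludes a fall of the size seen for Akt1.

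The balance of Akt1 and Akt2 per length therefore differed between the groups. Akt1 took 63.1%, 64.5%, 67.9%, 64.5% and 66.0% of the summed TPM of Akt1 and Akt2 in siCtrl replicates 1 to 5. Its share was 55.1%, 50.6%, 52.7%, 46.4% and 44.9% in siScrt1 replicates A to E. The mean share was 65.2% ± 1.80 in siCtrl and 49.9% ± 4.27 in siScrt1 (SD over 5 libraries each), and the groups did not overlap. The TPM of Akt1 was 1.88 ± 0.153 times that of Akt2 in siCtrl and 1.01 ± 0.172 times in siScrt1 (SD over 5 libraries each), and in siScrt1 replicates D and E it was below that of Akt2. The summed TPM of both genes was 91.9 ± 12.1 in siCtrl (73.4 to 102.7) and 64.8 ± 7.41 in siScrt1 (56.6 to 72.5; SD over 5 libraries each). These shares and sums follow from the difference in Akt1 and were not tested.

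**Figure D4:**
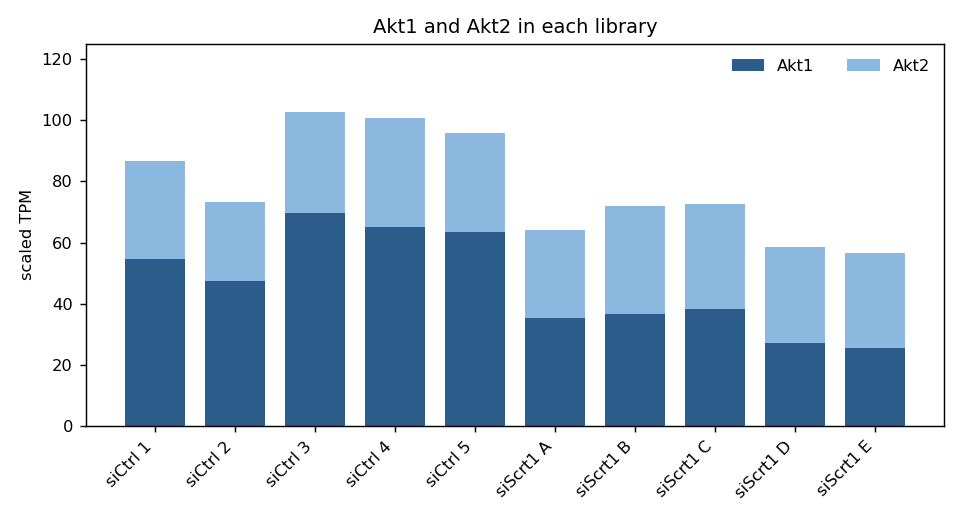
Stacked bars of the scaled TPM of Akt1 (dark blue) and Akt2 (light blue) in each of the 10 libraries, from 0. The dark segment is shorter in every siScrt1 library than in any siCtrl library, while the summed height runs from 73.4 to 102.7 TPM in siCtrl and from 56.6 to 72.5 TPM in siScrt1.

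Foxo1 (ENSRNOG00000013397) encodes the transcription factor that Akt phosphorylates. It had normalised counts of 704, 738, 696, 644 and 792 in siCtrl replicates 1 to 5 and 717, 751, 827, 650.3 and 736 in siScrt1 replicates A to E. Replicate C was the only siScrt1 library above the range of siCtrl. Foxo1 differed by 0.04 on the log2 scale (SE 0.0769, 95% interval -0.13 to 0.21, limma adjusted p = 0.889).

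To see the 8 genes in their surroundings, 88 further genes of the pathway were listed by role, of which 87 were in the table and 78 passed the filter. At an adjusted p under 0.05, limma called 0 of the 78 genes, with or without the replicate block, and limma-voom on recovered reads called 0 as well. At an unadjusted p under 0.05, 6 genes were higher and 4 lower in siScrt1, while 11.1% of all genes tested passed that threshold. With the replicate block 13 were higher and 4 lower, while 16.1% of all genes tested passed (8.12% higher in siScrt1). Groups without overlap in normalised counts were found in 3 of these 78 genes, or 3.85%, close to the 3.51% of all genes tested, and these were Pdpk1, Foxo6 and Pfkfb2. The median log2 fold change of the 78 genes was 0.06, against 0.0035 for all genes tested. With log2(TPM + 1) or log2(TPM + 0.1) in place of the normalised counts, 1 gene, Foxo6, was called, with adjusted p-values of 0.0330 and 0.0478.

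Upstream of the receptors, all 8 tested ligands and binding proteins had positive log2 fold changes, with a median of 0.23, while 51.0% of all genes tested had a positive value. At an unadjusted p under 0.05, limma had 0 of the 8 without the replicate block and 4 with it (Igf1, Igf2, Igfbp3 and Igfbp4, with adjusted p-values of 0.206 to 0.307 in that fit). Of all genes tested, 5.34% were higher at that threshold without the block and 8.12% with it. The insulin genes Ins1 and Ins2, whose near-identical sequences make the split of reads between them uncertain, had values of 0.15 (SE 0.298) and 0.19 (SE 0.289), with limma adjusted p-values of 0.893 and 0.853. Both other receptors listed were expressed above Insr per length. Insrr, the insulin receptor-related receptor, had 60.9 ± 8.26 TPM in siCtrl and 68.2 ± 3.51 TPM in siScrt1 (SD over 5 libraries each; limma adjusted p = 0.473). Igf2r, which takes up insulin-like growth factor II for degradation, had 29.4 ± 5.16 and 30.4 ± 5.25 TPM (SD over 5 libraries each; limma adjusted p = 0.944).

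Next to the Irs proteins, the adaptors Grb2 and Shc1 lead from the receptors to the Ras pathway, and their log2 fold changes were 0.06 (limma adjusted p = 0.749) and 0.0023 (adjusted p = 0.995). Among the inhibitors of receptors and adaptors, the tyrosine phosphatases Ptprf and Ptpn2 had values of 0.08 (limma adjusted p = 0.742) and -0.04 (adjusted p = 0.913). The catalytic PI3-kinase subunit Pik3ca was at -0.13 (limma adjusted p = 0.615) and the regulatory subunit Pik3r3 at 0.07 (adjusted p = 0.778). Per length, Pik3r3 with 23.4 ± 1.87 TPM in siCtrl was above Pik3r1 with 10.2 ± 1.88 TPM (SD over 5 libraries each). The inositol phosphatases Inppl1 and Inpp5k, which act on PIP3, were at 0.11 (limma adjusted p = 0.537) and -0.13 (adjusted p = 0.623).

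Of all genes tested, 11.1% had an unadjusted p under 0.05 (5.34% higher in siScrt1). Of 11 tested genes in the list of the kinases that phosphorylate Akt, their complexes and its chaperones, 2 passed that threshold, both higher in siScrt1. They were Pdpk1, which encodes the PDK1 kinase that phosphorylates Akt, at 0.16 (SE 0.0666, limma adjusted p = 0.382), and Mtor, the kinase of both mTOR complexes, at 0.19 (SE 0.0716, adjusted p = 0.327). The groups of Pdpk1 did not overlap in normalised counts, with 505 to 579 in siCtrl and 585 to 676 in siScrt1. Of all genes tested, 3.51% had groups without overlap. The chaperones Hsp90ab1 and Hsp90aa1, which stabilise Akt, were at 0.06 (limma adjusted p = 0.829) and -0.11 (adjusted p = 0.759).

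The list of Akt substrates ran from -0.36 for Bad, a pro-apoptotic protein, to 0.73 for Foxo6, a FoxO transcription factor, with a median of -0.11 over 17 genes. Of these, 3 were higher and 3 lower at an unadjusted p under 0.05, beside the 11.1% of all genes tested. The higher ones were FoxO genes. With the replicate block 4 were higher, the fourth being Cdkn1a, which encodes the cell cycle inhibitor p21, at 0.38 (limma adjusted p = 0.472 without the block and 0.0539 with it). Foxo6 had normalised counts of 20.5 to 29.5 in siCtrl and 35.3 to 46.7 in siScrt1 without overlap (SE 0.173, limma adjusted p = 0.0730), from 20 to 52 reads per library. Foxo3 was at 0.27 (SE 0.111, limma adjusted p = 0.379) and Foxo4 at 0.23 (SE 0.0926, adjusted p = 0.349), beside 0.04 for Foxo1. The lower ones were Bad (SE 0.145, limma adjusted p = 0.368), the kinase gene Chuk at -0.25 (SE 0.0755, adjusted p = 0.176), and Pfkfb2, an enzyme that controls glycolysis, at -0.14 (SE 0.0532, adjusted p = 0.321), with normalised counts of 3760.2 to 4223 in siCtrl and 3612 to 3752 in siScrt1. These genes, other than Pfkfb2, were singled out after their values were seen, and none of them passed the adjusted threshold. Rheb, the GTPase that activates mTORC1, was the other abundant gene of the list, at -0.14 (limma adjusted p = 0.504).

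Beside 11.1% of all genes tested, 1 of 8 genes at the output of mTORC1 had an unadjusted p under 0.05. This was Eif4e, the cap-binding initiation factor, at -0.16 (SE 0.0701, limma adjusted p = 0.394). Rps6, a ribosomal protein phosphorylated downstream of mTORC1, was at 0.30 with a wide error (SE 0.320, adjusted p = 0.780).

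**Figure D5:**
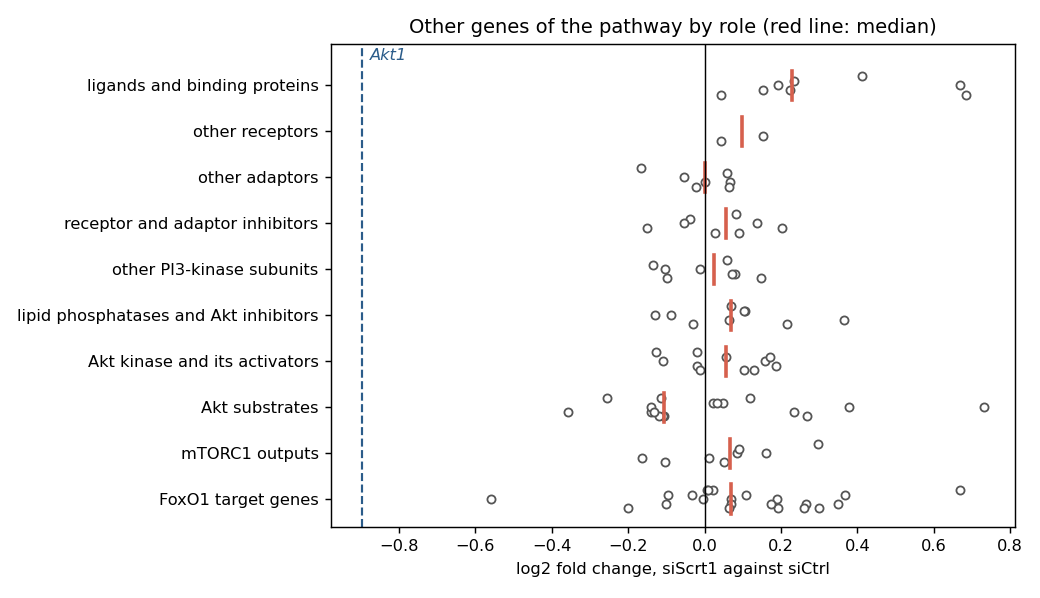
Log2 fold change of the tested genes of the other pathway lists and of the FoxO1 target list, each open circle 1 gene, with a red line at the median of each list and a dashed blue line at Akt1. Medians run from -0.11 for Akt substrates to 0.23 for ligands and binding proteins, and no listed gene lies as low as Akt1 at -0.90. The FoxO1 target list includes Insr and Irs2.

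Since FoxO1 activity is set by Akt, 23 genes known as FoxO1 targets in liver, muscle or β-cells were examined, of which 22 passed the filter. At an adjusted p under 0.05, limma called 0 of 22 genes, and with the replicate block again 0. At an unadjusted p under 0.05, 5 genes were higher and 0 lower in siScrt1, where 5.34% of all genes tested were higher at that threshold, and with the replicate block 6 were higher and 0 lower, where 8.12% were higher. The median of the list was 0.07, and 16 of 22 genes had a positive log2 fold change, as had 51.0% of all genes tested. The 5 genes were Insr, Bcl2l11, Cited2, Pdx1 and Mafa, singled out by these p-values. Insr also belongs to the genes selected by symbol. The list was not divided by whether FoxO1 raises or lowers a gene, so these counts give no direction of FoxO1 activity, which was not tested.

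Pdx1 and Mafa, transcription factors of mature β-cells, also had the highest mean TPM of the list over all 10 libraries. In siCtrl alone, Neurod1 with a mean of 165 TPM was above Pdx1. Pdx1 had 148 ± 21.4 TPM in siCtrl and 188 ± 16.9 TPM in siScrt1 (SD over 5 libraries each), which is 0.35 higher on the log2 scale (SE 0.103, limma adjusted p = 0.176). Mafa had 427 ± 90.6 and 547 ± 98.7 TPM (SD over 5 libraries each), 0.37 higher on the log2 scale (SE 0.166, limma adjusted p = 0.437). Bcl2l11, which encodes the pro-apoptotic protein Bim, was at 0.19 (limma adjusted p = 0.379), and Cited2, a transcriptional co-regulator, at 0.30 (adjusted p = 0.398). G6pc, a gene of glucose production in liver with 0.418 ± 0.178 TPM in siCtrl, was the lowest of the list at -0.56 (SE 0.408, limma adjusted p = 0.653).

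The genes that varied most like Akt1 between libraries were looked up after the mean of each group had been removed, by Pearson correlation of log2(normalised count + 0.5) over the 10 libraries. Among 9351 genes that averaged 5 CPM or more, the closest were Ccdc97 (r = 0.965), Tsc2 (r = 0.948), Dpy19l3 (r = 0.946), Ap3d1 (r = 0.945) and Midn (r = 0.943). Tsc2 encodes tuberin, an Akt substrate and inhibitor of mTORC1, and its log2 fold change was -0.13 (limma adjusted p = 0.619). Among the other 7 genes, the values with Akt1 were 0.70 for Irs2, 0.63 for Akt2, 0.32 for Igf1r, 0.25 for Foxo1, -0.12 for Irs1, -0.32 for Insr and -0.34 for Pik3r1. The points share library, depth and scaling, and these correlations are descriptions without a test.

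Genes next to Akt1 were examined to see whether they moved with it. In the order of the RefSeq annotation of the rat assembly GRCr8, the 3 nearest tested genes on either side were Siva1, Tmem179 and Kif26a, with log2 fold changes of 0.14, 0.15 and 0.52, and Zbtb42, Cep170b and Clba1, with 0.18, 0.01 and -0.02. Their limma adjusted p-values ran from 0.588 to 0.980, and this set was chosen after the values had been seen. The test called 0 of these 6 genes and 1.05% of all genes tested, so the count of 0 in 6 is a description.

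Scratch proteins bind E-box sequences, and the promoters of the genes were searched for the core CAGGTG on both strands. RefSeq promoter windows of 300 bases (250 before and 50 after the start, GRCr8) were matched for 7 of the 8 genes, and 1 of the 7, that of Insr, held the core, while 18.8% of 33469 windows did. The longer form CAACAGGTG was in 0 of the 7 and in 0.203% of all windows. The 250 bases before the start of Insr (GRCr8, chr12:6128804-6129053, minus strand) are shown because they held the match, with the core in capitals starting 52 bases before the start of the gene.
Insr: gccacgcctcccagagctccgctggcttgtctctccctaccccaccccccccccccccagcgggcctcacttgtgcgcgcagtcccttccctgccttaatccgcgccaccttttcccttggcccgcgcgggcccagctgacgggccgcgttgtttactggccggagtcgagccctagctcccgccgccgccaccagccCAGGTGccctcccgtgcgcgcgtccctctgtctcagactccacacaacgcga
A match or its lack describes these letters in these windows, and no binding of Scrt1 was measured in these libraries.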

How the data were processed

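Total RNA of 10 libraries, 5 siCtrl and 5 siScrt1, was sequenced by the authors. The submitters' processing notes name FastQC, Trimmomatic, kallisto and sleuth, with versions not given in the sources used here. Reads were assigned to transcripts of the rat Rnor6 assembly with kallisto. The deposited table gives an estimated count and a TPM per transcript and library, both adjusted for library size with sleuth by the authors. The deposited estimated counts are therefore a normalised signal, made by the authors with kallisto and sleuth. The deposited TPM are a score, computed by kallisto and rescaled by the authors so that sums ran from 821278 to 1153952 per library. The transcript lengths and the library numbers 1 to 5 in each group were also deposited. Rows without values, 9363 in number, were left out.

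Both measures were added up over all transcripts of an Ensembl gene. What 1 read was worth after scaling was read from the low values of each library (0.842 to 1.26), and division by it gave recovered reads, from which CPM were computed. Of the values above 0, 48.8% came out whole within 0.001, because kallisto shares reads between transcripts. Genes were kept that reached, in at least 5 libraries, the CPM of 10 reads in a library of median size, and 15 reads in total. log2(normalised count + 0.5) was tested with limma 3.58.1 (lmFit, eBayes with trend) under R 4.3.3 and no term but the group, and p-values were adjusted over all 12941 genes after Benjamini and Hochberg with a threshold of 0.05. All fold changes refer to this scale and understate those of genes with few reads. Transcripts with at least 5 reads in at least 47% of libraries were tested likewise, 17580 in number. For single values, group means were compared by exact permutation (two-sided). Intervals cover 95%. On simulated data for 12941 genes of these libraries, the gene fit found 96% of 200 genes with a simulated 2-fold change. Unchanged genes made up 4.95% of its calls. The simulation gave every gene the same dispersion and drew the libraries independently, without the shared deviations of libraries of the same number. These shares therefore hold for the simulated setting and give no rate for the real libraries or for smaller changes. Figures were made in Python 3.11.15 with matplotlib 3.10.9.

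Groups came from the sample labels. The library numbers come from the deposited table. Those of siCtrl are also in the sample titles, while siScrt1 replicates carry the letters A to E there. No source used here says that libraries of the same number share a preparation. Libraries of the same number deviated together from their group means, with correlations across genes of 0.351, 0.131, 0.231, 0.198 and 0.234 for numbers 1 to 5, each above that of the siCtrl library with any other number, so that a fit with the number as a block was made beside the unblocked one. Other alternatives were median-ratio, upper-quartile and total-count scaling, other filters, other pseudocounts, TPM, limma-voom on recovered reads, and leaving out each library.

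The genes named are the 8 members, Scrt1, any gene of the pathway or FoxO1 target lists with an adjusted p under 0.05, the 2 genes of highest mean TPM in each list, and the 5 genes most like Akt1. Names outside this rule are given as chosen after their values were seen, among them Igf1, G6pc and the genes passing an unadjusted p under 0.05. The members and lists were chosen with earlier results of these data known. Of the pathway lists, Irs4 was not found in the table and 9 genes were under the filter, and some genes of these lists are not reported here and enter no count.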

Additional observations from a re-analysis of the deposited data

Results flagged for a closer look

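In 48 groups of 5 libraries, the normalised counts and TPM of the 8 genes and Scrt1 and the shares, sums and ratios of their TPM were searched for a library far from the others, taking a gap of more than 0.71 of the range of the group, at which chance alone gives about 2.4. In siCtrl, 1 was found. The ratio of Irs2 to Irs1 in TPM was 17.9 in replicate 3 and 11.9 to 12.8 in the others. Without this library, Akt1 was still called in siScrt1 against siCtrl.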

How the results depend on the processing

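Akt1 was called in 20 of 20 alternatives of the gene fit, of which 10 kept all libraries and 10 left out 1, with log2 fold changes from -0.98 to -0.81 and limma adjusted p-values from 0.00218 to 0.0213. It was the single gene called among the 8 in each of them, and the replicate block changed no call among the 8 genes. Insr was not called in any, with adjusted p-values from 0.0981, with the replicate block, to 0.561. The number of all genes called moved from 136 to 259 with the replicate block and ran from 62, without siScrt1 replicate D, to 133 when 1 library was left out.

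In the fit of transcripts, the Akt1 call was lost with the replicate block (adjusted p = 0.0782, log2 fold change -0.90) and without siCtrl replicate 3, 4 or 5 or siScrt1 replicate D or E, with log2 fold changes from -0.98 to -0.81 over all libraries left out. Foxo6 became the 1 pathway gene called under log2(TPM + 1) and under log2(TPM + 0.1). The Akt1 share of Akt1 and Akt2 was 70.0% in siCtrl and 55.3% in siScrt1 when taken over reads, which are not corrected for length. The sign of small differences turned. Akt2 was at -0.018 under total count scaling and ran from -0.055 to 0.060 when 1 library was left out. Igf1r ran from -0.063 to 0.059, Irs2 from -0.0031 to 0.13, Foxo1 from -0.0017 to 0.085 and the Pik3r1 transcript of 1365 bases from -0.080 to 0.30, and the single transcripts of Akt2, Igf1r, Irs2 and Foxo1 had the same ranges. The cause was not tested. No scaling moved the median of all genes by 0.1 on the log2 scale. Irs1 had 183 to 265 reads per library and Foxo6 20 to 52, which limits the precision of their values.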

Other observations

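Igf1, the ligand with the highest affinity for Igf1r, had 2.79 ± 1.59 TPM in siCtrl and 4.54 ± 2.67 TPM in siScrt1 (SD over 5 libraries each), 0.68 higher on the log2 scale with a wide error (SE 0.422, limma adjusted p = 0.589). Igfbp7, a binding protein of insulin-like growth factors, was the most abundant of the listed binding proteins, at 553 ± 85.0 TPM in siCtrl and 574 ± 107 TPM in siScrt1 (SD over 5 libraries each; limma adjusted p = 0.934). Neurod1, a β-cell transcription factor in the FoxO1 target list, was at 165 ± 19.3 TPM in siCtrl and 166 ± 8.99 TPM in siScrt1 (SD over 5 libraries each; log2 fold change 0.0064, limma adjusted p = 0.987).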
